A study of Mus musculus with 6 samples.

Results

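The 43 genes described here encode the machinery by which cells show peptides to T cells: the chains of MHC class I and class II, the proteins that cut and load their peptides, the factors that switch the MHC genes on, and the ligands that give T cells a further signal. They were taken by gene symbol, each from 1 of the 23282 rows of the deposited count files, by a rule that uses no measured value, and all 43 symbols were found. These genes were, however, listed with earlier results of these data known. They were read in liver sinusoidal endothelial cells (LSECs) in 3 libraries of TXNIP-/- and 3 of WT origin, to ask whether loss of Txnip moved class I and class II genes and whether it moved them alike. TXNIP is an arrestin-like protein that binds and inhibits the antioxidant thioredoxin. The Txnip-/- mice lacked the gene in the whole body, not in endothelium alone, and both genotypes were on the C57BL/6J strain. LSECs were prepared by collagenase perfusion, a density gradient and positive selection with magnetic beads against the endothelial protein CD146. In the study's protocol Kupffer cells, the resident liver macrophages, are the unbound fraction of that same step. Age, sex, pooling of animals and any treatment are not given in the sources used here for these libraries. The protocol goes on to culture the selected LSECs, and whether this RNA was taken before or after culture is not given either.

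The 6 libraries held 9147764 to 10193952 counts, and the 43 genes took 0.693% to 0.717% of them in Txnip-/- LSECs and 0.708% to 0.799% in WT LSECs. Txnip itself had 269, 216 and 191 counts in Txnip-/- LSECs and 1901, 2019 and 1994 in WT LSECs (edgeR log2 fold change -3.02 with a standard error, SE, of 0.14, adjusted p = 6.94e-10), lower in every library labelled as lacking it. The WT libraries were uneven: the ribosomal RNA gene Rn45s took 10.03% of the counts of WT replicate 1, 9.68% of replicate 2 and 17.8% of replicate 3, against 16.8% to 18.6% in Txnip-/- libraries. Over genes, the chi-square per degree of freedom of WT replicate 3 was 37.0 and 40.2 against its own genotype and 13.3 to 17.1 against the knockout. For this reason WT replicates 1 and 2 were given a term of their own in an alternative fit. Markers of LSECs were present in every library. Their summed level was 2641 to 3133 CPM in the knockout, 4900 and 5172 CPM in WT replicates 1 and 2 and 2947 CPM in WT replicate 3. The lower sum of WT replicate 3 was mainly that of Lyve1, with 3482, 3780 and 1520 CPM in WT replicates 1, 2 and 3. Stab1 had 328, 345 and 375 CPM and Stab2 252, 231 and 245 CPM in the same libraries. All 9 LSEC markers had a lower mean in the knockout. Stab1 and Stab2 had log2 fold changes of -0.46 and -0.36 (adjusted p = 0.00984 and 0.0448, edgeR). The 16 macrophage and Kupffer cell markers summed to 328 to 355 CPM in the knockout and to 789 to 822 CPM in WT. Nothing in the labels says that the libraries of a genotype came from separate mice, so p-values measure the spread between these samples, which may be technical.

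MHC class I sits on almost every nucleated cell. A heavy chain and beta-2-microglobulin hold a short peptide that the proteasome has cut in the cytosol and that the TAP transporter has carried into the endoplasmic reticulum, where tapasin, calreticulin and ERp57 load it. MHC class II is made mainly by dendritic cells, B cells and macrophages. An alpha and a beta chain assemble on the invariant chain CD74, which lysosomal proteases remove. H2-DM then exchanges the remaining fragment for a peptide from material the cell has taken up. LSECs take up blood-borne protein avidly and are known to present it to CD8+ T cells on class I and, at low class II levels, to CD4+ T cells.

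Promoter sequences of a class I heavy chain gene, of B2m and of a class II gene are shown because class I and class II genes are switched on through related promoter elements. These are a CRE-like box followed by a Y box, on which CREB and NF-Y assemble with the RFX complex and to which NLRC5 (class I) or CIITA (class II) is recruited. RefSeq promoter windows of 300 bases on GRCm38.p6 were at hand for 34 of the 43 genes, H2-Ab1, Cd74 and Ciita not among them. Capitals mark every match, on either strand, to the Y box (GATTGG), the CRE core (TGACG), a kappa B element (GGGGATTCC) and an interferon-response-like run (AANNGAAA). All lines read 5′ to 3′ on the gene's own strand. The windows lie at chr17:34000298-34000597 (minus strand, H2-K1), chr2:122147437-122147736 (plus strand, B2m) and chr17:34287774-34288073 (minus strand, H2-Aa).
H2-K1: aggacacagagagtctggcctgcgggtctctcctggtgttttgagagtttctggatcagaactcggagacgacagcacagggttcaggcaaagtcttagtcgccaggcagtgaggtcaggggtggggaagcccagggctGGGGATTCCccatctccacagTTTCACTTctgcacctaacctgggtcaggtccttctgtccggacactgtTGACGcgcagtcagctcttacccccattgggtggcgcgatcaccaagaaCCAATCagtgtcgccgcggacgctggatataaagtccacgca
B2m: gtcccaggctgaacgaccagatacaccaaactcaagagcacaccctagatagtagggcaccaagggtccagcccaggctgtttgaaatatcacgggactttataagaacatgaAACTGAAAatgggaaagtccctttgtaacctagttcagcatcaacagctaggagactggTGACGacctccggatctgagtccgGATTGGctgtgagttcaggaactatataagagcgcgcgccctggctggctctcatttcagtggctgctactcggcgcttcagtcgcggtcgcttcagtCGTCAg
H2-Aa: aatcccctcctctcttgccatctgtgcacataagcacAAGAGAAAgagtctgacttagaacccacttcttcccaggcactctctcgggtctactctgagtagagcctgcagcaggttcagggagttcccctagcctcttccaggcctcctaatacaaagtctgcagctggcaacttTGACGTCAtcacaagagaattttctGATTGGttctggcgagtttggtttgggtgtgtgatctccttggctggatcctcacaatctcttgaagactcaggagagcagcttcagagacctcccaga
All 3 windows held a match to the CRE core and to the Y box. From the start of the CRE match nearest before it, the marked Y box lay 49 bases on in H2-K1, 24 in B2m and 22 in H2-Aa. In H2-K1 the letters cattgg, in which only the first differs from GATTGG, lie unmarked and nearer the CRE core. In H2-Aa the CRE core is read on both strands in 1 overlapping run, and the 22 bases start at the later, reverse-strand match. These distances hold for exact matches only and do not compare the promoters. A gene such as H2-K1, which has 2 windows, was counted if any of its windows held the match. The Y box was in 20 of these 34 genes, among them 6 of 7 class I chain genes and 6 of 6 class II chain genes, and in 16.1% of all 32851 promoter windows. Shares over all windows count single windows, so they are not quite the same measure as the counts of genes. The CRE core was in 13 of 34 (6 of 7 class I, 1 of 6 class II; 20.8% of all windows), the interferon-response-like run in 18 of 34 (7 and 3; 23.9%). The kappa B element was in 3 of 34, all class I heavy chains (H2-K1, H2-D1 and H2-Q7; 0.25%). A match describes letters in a window and not a bound site.

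The members that passed the test belonged to class II presentation, and no class I gene was called in either direction. Of the 43 genes, 32 passed the filter on low counts and were tested among 11583 genes by edgeR's quasi-likelihood test. A gene was called at a Benjamini-Hochberg adjusted p under 0.05. The 3 members called were Cd74, H2-Aa and Lgmn, all lower in Txnip-/- LSECs. No member was called higher. Over all genes tested, 1.55% were called, 0.57% higher and 0.976% lower. At an unadjusted p under 0.05 there were 5 lower members (Cd74, H2-Aa, Lgmn, Ifi30 and Cd1d1) and 1 higher (Cd40). At that level 6.05% of all genes were lower and 5.48% higher, 11.5% in all. The libraries of the genotypes did not overlap in CPM for 8 of the 32 members, 7 of them lower in Txnip-/- (8.94% of all genes) and 1 higher (8.43%), against 17.4% of all genes in either direction. The median log2 fold change of the 32 was -0.05, and that of all genes was -2.75e-05. Cd74, H2-Aa and Cd1d1 reached the filter through the WT libraries alone, since no Txnip-/- library held the minimum of 1.03 CPM before scaling. Their being tested at all rests on the genotype in which they were high. Untested were H2-T23, H2-Q7, Ciita, H2-Eb1, H2-DMa, H2-DMb2, H2-Oa, Cd80, Pdcd1lg2, Icosl and Cd276, and H2-Oa and Cd80 had no count in any library.

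**Figure D1:**
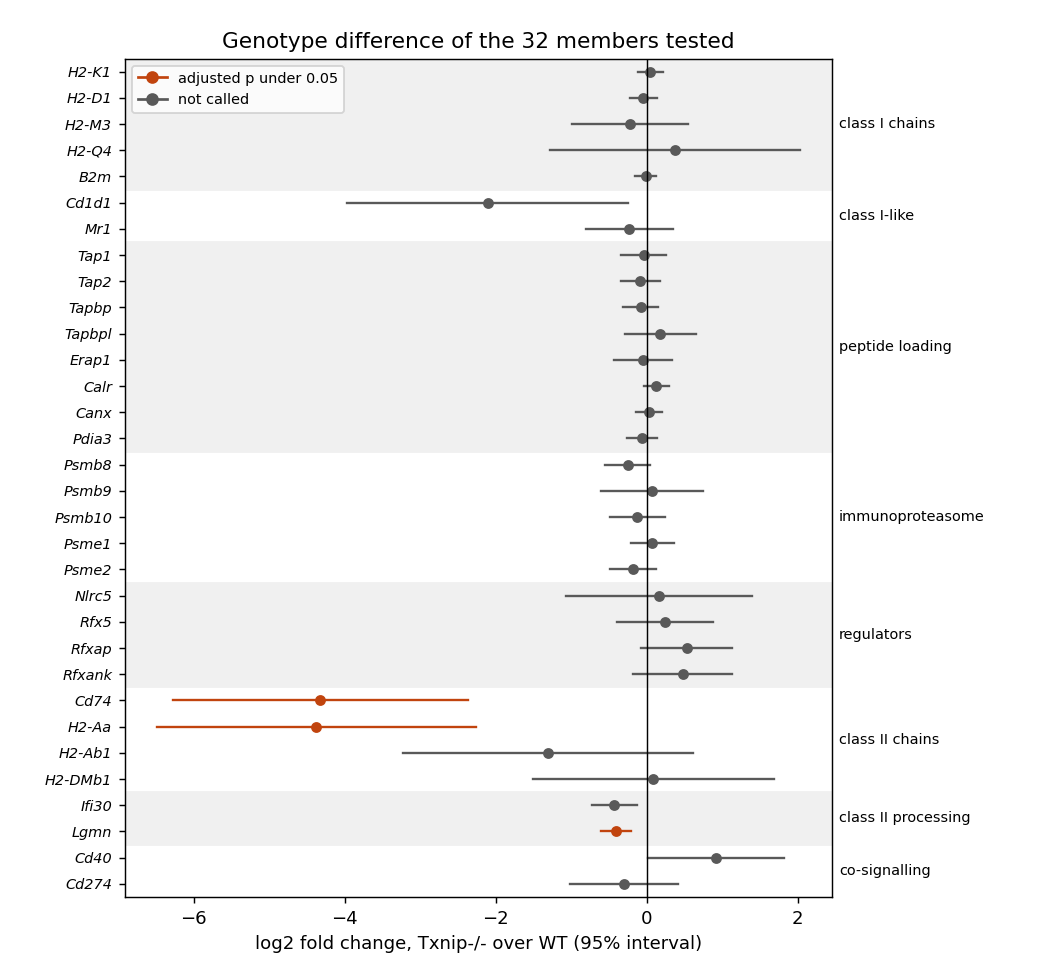
Log2 fold change of Txnip-/- over WT LSECs for the 32 members tested (horizontal axis), each point with its 95% interval from edgeR and coloured where the adjusted p was under 0.05. The 3 coloured genes, Cd74, H2-Aa and Lgmn, lie left of 0 and belong to class II presentation, while the intervals of all class I chain and peptide loading genes cross 0.

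Class I chains were abundant and level between the genotypes. B2m, the light chain shared by all class I molecules (chromosome 2 of GRCm38, 122147686 to 122153083), was the most abundant member, with 26403, 30568 and 27743 counts in Txnip-/- LSECs and 30062, 33090 and 28907 in WT LSECs, or 3010 ± 92.2 and 3045 ± 114 CPM (SD, n = 3, and here and below CPM uses TMM-scaled library sizes). H2-D1, a classical heavy chain that presents to CD8+ T cells (chromosome 17, 35262730 to 35267499), had 8671, 10089 and 8889 counts against 10565, 11817 and 8452. The libraries of both genes overlapped, and for H2-D1 the highest and the lowest value were both in WT libraries, replicates 2 and 3. The log2 fold change was -0.02 for B2m (95% interval -0.15 to 0.12, adjusted p = 0.953) and -0.05 for H2-D1 (-0.23 to 0.13, adjusted p = 0.900).

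H2-K1, the other classical heavy chain of this strain (chromosome 17, 33996017 to 34000347), had 5339, 5309 and 5172 counts in Txnip-/- LSECs and 5482, 5847 and 5160 in WT LSECs, with means of 563 ± 28.9 and 545 ± 11.7 CPM. Its log2 fold change was 0.05 (SE 0.08, 95% interval -0.12 to 0.21, adjusted p = 0.894), an interval that runs from 0.922 to 1.16 of the WT level. The signs of these 3 small differences turned under other settings: without scaling factors H2-K1 was at -0.035, and without WT replicate 2 H2-D1 was at 0.031 and B2m at 0.0084. The non-classical heavy chains, which present restricted sets of peptides, were far lower. H2-M3, which binds formylated peptides, had 39 to 65 counts per Txnip-/- library and 46 to 80 per WT library, and H2-Q4 had 9 to 14 and 6 to 17. H2-T23 (Qa-1) and H2-Q7 (Qa-2) had at most 15 counts in any library. None of the 5 tested class I chains passed the test in edgeR (adjusted p 0.894 to 0.953, 0 at an unadjusted p under 0.05), nor in DESeq2 or limma. Summed over 7 genes the class I chains stood at 4564 ± 113 CPM in Txnip-/- and 4615 ± 199 CPM in WT LSECs. Near-identical copies can share reads among these genes: 8.69% of 75-base windows at the 3′ end of H2-Q4 also occur in H2-Q6 and 15.3% of those of H2-T23 in other genes, but none of those of H2-K1, H2-D1 or B2m. Here and below only exact matches were counted, so similar copies may share more reads than these figures show.

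Cd1d1 and Mr1 are class I-like molecules that show lipids to NKT cells and vitamin B metabolites to MAIT cells. Cd1d1 had 1, 7 and 3 counts in Txnip-/- LSECs and 16, 23 and 13 in WT LSECs, and every Txnip-/- library was below every WT library. The difference did not pass the correction (log2 fold change -2.11, SE 0.88, adjusted p = 0.347 in edgeR's test). Mr1 had 66 to 86 and 79 to 110 counts (log2 fold change -0.23, adjusted p = 0.840).

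In the loading complex no difference between the genotypes passed the test. Tap1, one chain of the peptide transporter, had 404, 523 and 426 counts in Txnip-/- LSECs and 423, 589 and 481 in WT LSECs, that is 48.0 ± 4.62 and 49.4 ± 7.58 CPM. The libraries of the genotypes lay among each other (log2 fold change -0.04, SE 0.14, 95% interval -0.34 to 0.26, adjusted p = 0.949). Tapbp, tapasin, which bridges the transporter and the empty class I molecule, had 1172, 1245 and 1239 against 1208, 1425 and 1510 counts (log2 fold change -0.08, SE 0.11, 95% interval -0.31 to 0.15, adjusted p = 0.866). Its WT libraries spread more widely, from 118 to 160 CPM, than its Txnip-/- libraries, from 127 to 132 CPM. The second transporter chain Tap2, the tapasin-related editor Tapbpl, the trimming peptidase Erap1 and the chaperones Calr, Canx and Pdia3 (ERp57) had log2 fold changes between -0.09 and 0.18. None of the 8 passed the test (adjusted p 0.590 to 0.951). Calr, the most abundant of them with 899 ± 64.6 and 824 ± 37.2 CPM, had a log2 fold change of 0.13 (95% interval -0.04 to 0.29). The signs for Tap1 and Tapbp were not stable, with 0.061 for Tap1 without WT replicate 2, 0.0013 without Txnip-/- replicate 1, and 0.037 for Tapbp without WT replicate 3. The term for WT replicates 1 and 2 sets the knockout against WT replicate 3 alone. With it Tapbp was at -0.30, Pdia3 at -0.26, Tapbpl at 0.28 and Calr at 0.20. The others ran from -0.08 (Tap1) to 0.02 (Erap1).

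**Figure D2:**
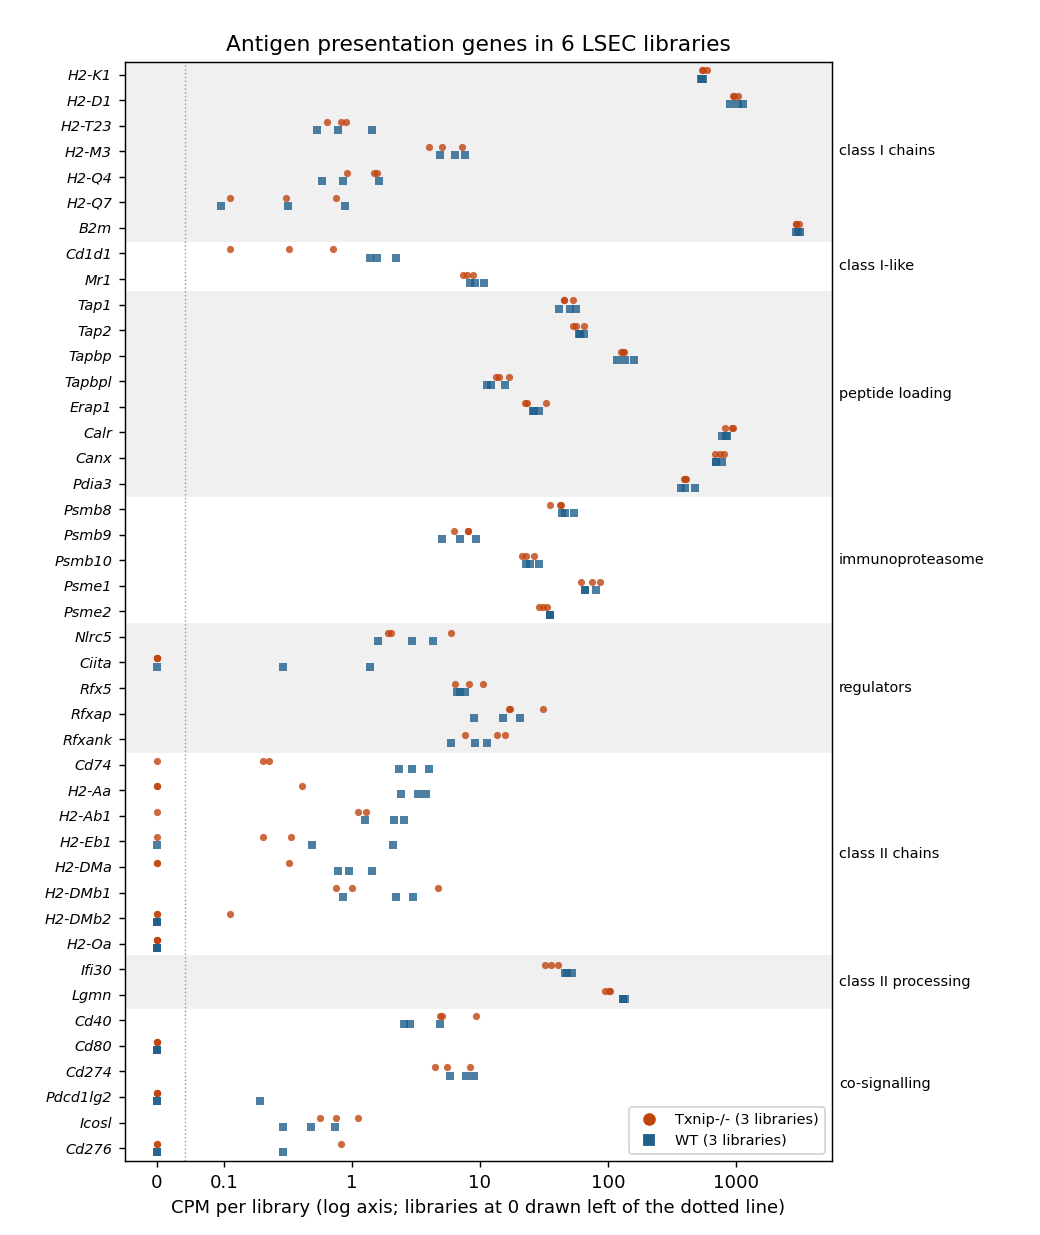
Level of each of the 43 genes in CPM (log axis, with libraries at 0 drawn left of the dotted line), 1 point per library, ordered by role, for 3 Txnip-/- (circles) and 3 WT (squares) LSEC libraries. Class I chains B2m, H2-D1 and H2-K1 and the loading chaperones Calr, Canx and Pdia3 reach at least 371 CPM in all 6 libraries, whereas no class II chain gene passes 5 CPM in any library.

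The immunoproteasome is the interferon-inducible form of the proteasome, whose catalytic subunits Psmb8, Psmb9 and Psmb10 and activator subunits Psme1 and Psme2 favour peptides that fit class I. Psmb8 had 378, 420 and 327 counts in Txnip-/- LSECs and 448, 565 and 433 in WT LSECs (42.2, 42.8 and 35.0 against 43.6, 53.8 and 45.8 CPM). All Txnip-/- libraries were below all WT libraries, narrowly at the nearest pair, and the difference did not pass the test (log2 fold change -0.26, SE 0.14, 95% interval -0.56 to 0.04, adjusted p = 0.530). Psme2 likewise did not overlap, with 29.0 to 33.4 and 35.1 to 35.4 CPM (log2 fold change -0.18, adjusted p = 0.709), but 45.1% of the 75-base windows at its 3′ end are shared with its copy Psme2b. Psmb9, Psmb10 and Psme1 overlapped, with log2 fold changes of 0.07, -0.12 and 0.07. None of the 5 was called, and their summed level was 176 ± 11.0 CPM in Txnip-/- and 186 ± 16.4 CPM in WT LSECs.

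Among the regulators, NLRC5 and CIITA are the co-activators that turn on class I and class II promoters, and RFX5, RFXAP and RFXANK form the complex that both need. Ciita had no count in any Txnip-/- library against 3, 0 and 13 counts in WT LSECs, so the WT total of 16 counts lay almost wholly in WT replicate 3 and WT replicate 2, like the Txnip-/- libraries, had none. Without WT replicate 3 the WT total was 3 counts, no more than the floor that a total of 0 allows, and no fold is given. It was too low for the test, and in a fit with no filter its adjusted p was 0.436. A count of 0 in 1 library allows 3 counts, or 0.286 to 0.335 CPM at these depths, and such limits cover counting error only.

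Nlrc5 had 18, 58 and 18 counts in Txnip-/- LSECs and 44, 31 and 15 in WT LSECs. The highest of the 6 values and 2 of the 3 lowest were in Txnip-/- libraries, and the log2 fold change was 0.16 (SE 0.58, 95% interval -1.07 to 1.39, adjusted p = 0.953). It took its sign from single libraries, being -0.58 without Txnip-/- replicate 2 and -0.14 without WT replicate 3. Rfx5, Rfxap and Rfxank had log2 fold changes of 0.24, 0.53 and 0.47, all with overlapping libraries and none called (adjusted p 0.514 to 0.853). Rfxap, for one, had 276, 165 and 162 counts against 213, 160 and 85. With the term for WT replicates 1 and 2, which sets the knockout against WT replicate 3 alone, Rfxap was at 1.26, Rfxank at 1.05 and Rfx5 at 0.14.

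Of the 4 class II chain and chaperone genes tested, Cd74 and H2-Aa fell and H2-Ab1 and H2-DMb1 did not pass the test, and all were rare in both genotypes. Cd74, the invariant chain that guides class II molecules to the endosome, had 2, 2 and 0 counts in Txnip-/- LSECs and 41, 31 and 22 in WT LSECs. H2-Aa, the alpha chain of I-A (chromosome 17, 34282744 to 34287823, promoter window shown above), had 0, 4 and 0 counts against 25, 40 and 31. The genotypes did not overlap for either gene, and a whole genotype summed to 4 counts in Txnip-/- and to 94 (Cd74) and 96 (H2-Aa) in WT. As ratios of these totals scaled to library size, WT exceeded Txnip-/- 21.9-fold for Cd74 (95% counting interval 8.26 to 81.9) and 22.3-fold for H2-Aa (8.44 to 83.6). In edgeR's fit the log2 fold changes were -4.32 (SE 0.93, adjusted p = 0.0215) and -4.38 (SE 1.0, adjusted p = 0.0335). The mean levels were 0.14 ± 0.12 and 3.09 ± 0.84 CPM for Cd74 and 0.14 ± 0.24 and 3.17 ± 0.69 CPM for H2-Aa (SD, n = 3). In bulk libraries fewer cells of a type and less RNA per cell cannot be told apart.

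Whichever library was left out, the log2 fold change stayed between -4.74 and -3.78 for Cd74 and between -7.95 and -3.84 for H2-Aa, but the call was not always kept. The adjusted p of Cd74 was 0.0720, 0.0845 and 0.0829 without Txnip-/- replicate 1, 2 or 3, 0.250 and 0.137 without WT replicate 1 or 2, and 0.0224 without WT replicate 3. That of H2-Aa was 0.141 and 0.131 without Txnip-/- replicate 1 or 3, 0.146, 0.252 and 0.0507 without WT replicate 1, 2 or 3, and 0.0253 without Txnip-/- replicate 2, which held all its Txnip-/- counts and without which the fitted value, here -7.95, is set by libraries at 0. With a term that set WT replicates 1 and 2 apart, the values were 0.0894 for Cd74 and 0.0650 for H2-Aa.

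**Figure D3:**
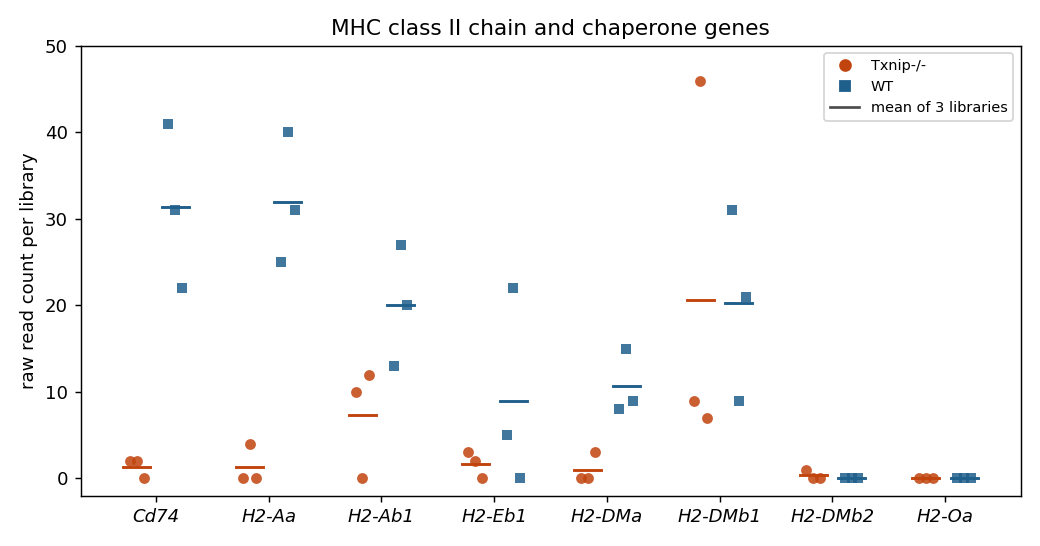
Raw read counts of the 8 class II chain and chaperone genes (vertical axis) in each of 3 Txnip-/- (circles) and 3 WT (squares) LSEC libraries, with horizontal lines at the mean of 3 libraries. Cd74, H2-Aa and H2-DMa separate the genotypes, H2-DMb1 does not and has its highest count, 46, in Txnip-/- replicate 2, and H2-DMb2 and H2-Oa are at or near 0 throughout.

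The other class II chains were less uniform. H2-Ab1, the I-A beta chain that pairs with H2-Aa (chromosome 17, 34257689 to 34269419), had 10, 0 and 12 counts in Txnip-/- LSECs and 13, 27 and 20 in WT LSECs. In CPM, Txnip-/- replicate 3 (1.28) just passed WT replicate 1 (1.27), so the groups touched. The difference did not pass the test (0.80 ± 0.70 against 1.98 ± 0.66 CPM, log2 fold change -1.31, SE 0.91, 95% interval -3.23 to 0.61, adjusted p = 0.646). H2-Eb1, the I-E beta chain, had 3, 2 and 0 against 5, 22 and 0 counts, most of them in WT replicate 2 and none in WT replicate 3, and did not pass the filter. Of the loading chaperone H2-DM, the alpha chain gene H2-DMa had 0, 0 and 3 counts against 8, 15 and 9, without overlap and with a count ratio of WT to Txnip-/- of 9.92 (95% counting interval 3.10 to 50.7). With no filter on low counts its adjusted p was 0.550 and that of H2-Eb1 0.717. The beta chain gene H2-DMb1 went its own way, with 9, 46 and 7 counts in Txnip-/- LSECs and 31, 9 and 21 in WT LSECs (log2 fold change 0.09, SE 0.75, adjusted p = 0.981). Of the 75-base windows at its 3′ end 15.7% are shared with its neighbour H2-DMb2, which had 1 count in 1 library. H2-Oa, the alpha chain of the H2-DM inhibitor H2-O, had none.

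Summed over the 8 genes, class II chains and chaperones had 25, 54 and 22 counts in Txnip-/- LSECs and 123, 144 and 103 in WT LSECs, or 3.55 ± 1.71 and 12.2 ± 1.42 CPM (SD, n = 3). No library of one genotype reached the range of the other, and 46 of the 54 counts of Txnip-/- replicate 2 were those of H2-DMb1. Markers of a cell type that makes class II moved in the same direction. All 16 macrophage and Kupffer cell markers had a lower mean in Txnip-/- LSECs, and 12 of the 14 tested were called lower (0.976% of all genes). All 14 lay lower without overlap (8.94% of all genes), with a median log2 fold change of -1.46. Of the 9 LSEC and 5 endothelial markers, 4 and 2 lay lower without overlap too. The summed counts of the macrophage and Kupffer cell markers were 3024, 3220 and 3324 in Txnip-/- and 8444, 8281 and 7733 in WT LSECs. The defining markers Adgre1, Csf1r, Clec4f and Vsig4 together had 422 to 575 and 1361 to 1424 counts. None of the 4 was at 0 in any library. Per 1000 macrophage marker counts, class II genes had 8.27, 16.8 and 6.62 counts in Txnip-/- LSECs and 14.6, 17.4 and 13.3 in WT LSECs, and on this scale Txnip-/- replicate 2 lay among the WT libraries. Without H2-DMb1, a choice made after seeing the data, the values were 5.29, 2.48 and 4.51 in Txnip-/- LSECs and 10.9, 16.3 and 10.6 in WT LSECs, and the genotypes did not overlap. Since H2-DMb1 held most counts of Txnip-/- replicate 2, this lack of overlap follows from leaving it out and adds no evidence. Of the other cell types that make class II, dendritic cell markers summed to 21.0 to 23.8 CPM and 21.2 to 28.6 CPM, with overlapping libraries and with Cd209a, Ccr7 and Siglech at 0 in every library. The B cell markers had 9, 3 and 4 counts in Txnip-/- and 11, 15 and 9 in WT LSECs, which in CPM ranged from 0.306 to 1.005 and from 0.952 to 1.43 and so overlapped. Among them Cd79b, Ms4a1 and Pax5 were at 0 in every library. The part of macrophage or B cell RNA in the class II difference was not tested.

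Of the members that prepare peptides for class II in the lysosome, Lgmn fell and Ifi30 did not pass the correction, both at levels far above those of the class II chains. Lgmn, the asparagine endopeptidase that opens protein antigens and the invariant chain (chromosome 12, 102394084 to 102439813), had 842, 1004 and 963 counts in Txnip-/- LSECs and 1340, 1416 and 1246 in WT LSECs. All Txnip-/- libraries (94.02 to 103 CPM) were below all WT libraries (130 to 135 CPM), and Lgmn fell to 0.754 of its WT level (95% interval 0.655 to 0.867, log2 fold change -0.41, SE 0.10, adjusted p = 0.0402, edgeR). The adjusted p of Lgmn was 0.182, 0.111 and 0.114 without Txnip-/- replicate 1, 2 or 3, 0.169 and 0.218 without WT replicate 1 or 2, 0.0251 without WT replicate 3, and 0.113 with a term for WT replicates 1 and 2, while its log2 fold change stayed between -0.44 and -0.37 in these fits. Ifi30 (GILT), the reductase that breaks disulphide bonds of antigens (chromosome 8, 70762774 to 70766663), had 365, 353 and 299 counts against 489, 548 and 439. Its libraries did not overlap either (36.2 ± 4.40 and 48.7 ± 3.05 CPM, log2 fold change -0.43, SE 0.14, adjusted p = 0.187). The macrophage markers, at a summed 340 ± 13.8 and 810 ± 18.1 CPM, moved with these genes too, and their part was not tested.

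Among 9 further genes of class II proteolysis and turnover, none of them members, 2 were called, both lower (0.976% of all genes were called lower), and all 9 had log2 fold changes below 0. They stand beside the macrophage markers, whose median log2 fold change was -1.46, and the part of those was not tested. Ctss, cathepsin S, which makes the last cuts in the invariant chain in antigen-presenting cells, had 146, 166 and 178 counts in Txnip-/- LSECs and 571, 590 and 611 in WT LSECs (its log2 fold change was -1.75, SE 0.15, adjusted p = 1.70e-06). Ctsb, cathepsin B, a general lysosomal protease, had 6834, 7901 and 7599 counts against 10660, 10385 and 9038 (log2 fold change -0.33, SE 0.07, adjusted p = 0.0319). The adjusted p of Ctss was at most 1.09e-04 whichever library was left out, whereas that of Ctsb was 0.182, 0.109 and 0.114 without Txnip-/- replicate 1, 2 or 3 and 0.210 and 0.123 without WT replicate 1 or 2. Cathepsin L (Ctsl), the enzyme that takes the place of cathepsin S in thymic epithelium, was at 1222 ± 46.8 and 1290 ± 8.73 CPM and did not pass the test (log2 fold change -0.08, adjusted p = 0.750). Ctsd and Ctsh were at adjusted p = 0.104 and 0.0585 and passed in some other fits. For Ctsd the adjusted p was 0.0224 in DESeq2, 0.0189 with no filter, 0.0182 without scaling factors and 8.39e-04 with the term for WT replicates 1 and 2. For Ctsh it was 0.0163 with no filter, 0.0432 without scaling factors and 0.0110 without WT replicate 3.

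Co-signalling molecules help decide whether a T cell that has met its peptide is activated or restrained. Cd40, the receptor through which T helper cells license antigen-presenting cells (chromosome 2, 165055627 to 165072948), had 44, 92 and 47 counts in Txnip-/- LSECs and 29, 51 and 24 in WT LSECs, that is 4.91, 9.38 and 5.02 against 2.82, 4.86 and 2.54 CPM. It was the only tested member whose Txnip-/- libraries were all above the WT libraries, though Txnip-/- replicate 1 passed WT replicate 2 only after scaling. The log2 fold change was 0.91 (SE 0.43, 95% interval 0.01 to 1.82, adjusted p = 0.428). Cd274 (PD-L1), which restrains T cells through PD-1, had 40, 54 and 78 counts against 80, 94 and 55. Its libraries overlapped (6.10 ± 2.005 and 7.52 ± 1.59 CPM, log2 fold change -0.30, SE 0.34, 95% interval -1.02 to 0.42, adjusted p = 0.829), and its sign turned to 0.070 with a term for WT replicates 1 and 2. The rest were scarce or absent. Icosl had 5 to 11 and 3 to 7 counts per library, and Cd276 (B7-H3) had 8 counts in 1 Txnip-/- and 3 in 1 WT library. Pdcd1lg2 (PD-L2) had 2 counts in 1 WT library, and Cd80 had none.

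Setting class II beside class I within each library removes depth from the comparison. The summed level of the 8 class II genes minus that of the 7 class I chains was -10.66, -9.74 and -10.89 on the log2 scale in Txnip-/- LSECs and -8.55, -8.46 and -8.69 in WT LSECs. Every Txnip-/- library was below every WT library, with means of -10.43 ± 0.61 and -8.57 ± 0.11 (SD, n = 3) and a difference of -1.86. In counts, 1 class II read stood beside 1620, 852 and 1904 class I reads in Txnip-/- LSECs and 376, 353 and 413 in WT LSECs. Without Cd74 the difference was -1.49, without B2m -1.86, and with any 1 library left out -2.21 to -1.63. Cd74 and H2-Aa, tested only through their WT libraries, held 94 and 96 of the 370 class II counts in WT. In Txnip-/- LSECs they held 4 each of 101. Both genes thus held a larger share of the class II counts in WT than in Txnip-/- LSECs, so without them the difference would be smaller. None of the checks above left out both together, and how far the difference rests on them was not tested. No p is given for the class I and class II sums, since all members were chosen with results of these data known.

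**Figure D4:**
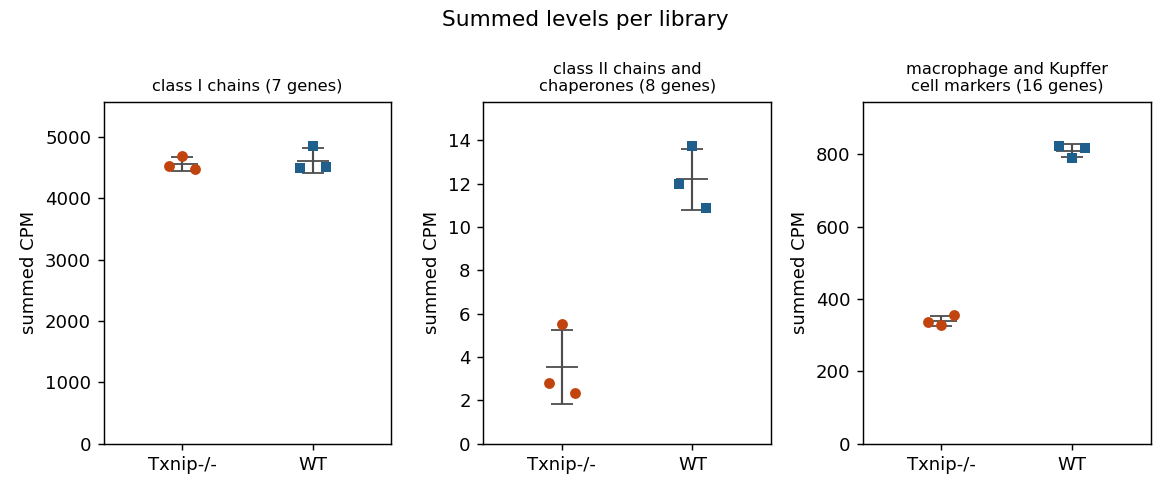
Summed CPM per library (vertical axes, each from 0) of 7 class I chain genes, 8 class II chain and chaperone genes and 16 macrophage and Kupffer cell markers in 3 Txnip-/- and 3 WT LSEC libraries, with the mean and SD. The class I sums overlap at 4564 and 4615 CPM, while the class II sums (3.55 and 12.2 CPM) and the macrophage marker sums are lower in all Txnip-/- libraries.

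Of 54 related genes found in the files 42 were tested, with the cathepsins Ctss and Ctsb the 2 called (1.55% of all genes were called), and the median log2 fold change was -0.09. No related gene was called higher by edgeR, DESeq2 or limma, and at an unadjusted p under 0.05 in edgeR there were 1 higher and 6 lower, against 5.48% and 6.05% of all genes. None of 8 tested genes of interferon-gamma signalling, which induces both MHC classes, was called by edgeR (adjusted p 0.337 to 0.954, with 1, Ifngr2, lower at an unadjusted p under 0.05). Irf1, an interferon-induced activator of class I genes, had 652, 585 and 449 counts in Txnip-/- LSECs and 541, 505 and 588 in WT LSECs. None of 6 constitutive proteasome genes, 4 factors that bind MHC promoters (Nfya, Nfyb, Nfyc and Creb1), 7 endoplasmic reticulum and peptidase genes and 4 tested further class I genes was called by edgeR either, and in these 4 groups 1 gene, Hspa5, had an unadjusted p under 0.05. In other fits Hspa5 was called higher with the term for WT replicates 1 and 2 (adjusted p = 0.0106), and the proteasome gene Psmb7 was called lower, at -0.39 on the log2 scale, without WT replicate 3 (adjusted p = 0.0172). Cd86, the co-stimulator related to Cd80, had at most 7 counts in a library.

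On the genome the members are partly neighbours. In GENCODE M21 on GRCm38, 18 of the 43 lie on chromosome 17 between 33915899 and 37274484, the mouse MHC. Class I, class II and peptide processing genes are mixed there. Psmb9, Tap1, Psmb8 and Tap2 lie in a row between 34181987 and 34216321, close to the class II genes H2-Ab1 and H2-Aa. Those 4 neighbours had log2 fold changes of 0.07, -0.04, -0.26 and -0.09, with none called, beside -1.31 for H2-Ab1 and -4.38 for H2-Aa. At their 3′ ends Erap1, Psme1, Rfx5 and H2-Oa overlap a gene on the other strand, and since use of strand in counting is not given in the sources used here, reads of these pairs cannot be told apart.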

How the data were processed

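RNA from LSECs of 3 TXNIP-/- and 3 WT libraries was sequenced with a QuantSeq 3′ mRNA kit in single-end reads of 75 bases. Per the methods, the authors used Bowtie2 for alignment and Bedtools for coverage, multiple alignments included, and deposited raw counts per gene symbol, 1 file per library. The build mm10 is named in the submitters' processing notes, and versions, annotation and use of strand are not given in the sources used here. The kit reads transcript ends without regard to length, so CPM was set between genes without division by length. No molecular identifiers are named, and counting intervals and floors cover counting error only.

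Here counts were tested in R 4.3.3 with edgeR 4.0.16 (filterByExpr, TMM, glmQLFit, glmQLFTest, genotype as the only term) over 11583 genes with Benjamini-Hochberg adjustment, and a gene was called at an adjusted p under 0.05. A standard error is the fold change on the log2 scale divided by the square root of F. Groups were taken from the labels. Library totals of 9147764 to 10193952 counts set the precision, and 3 counts, 0.286 to 0.335 CPM in a library, were the floor. The 95% intervals of count ratios were exact binomial. Alternatives were other scalings (RLE, upper quartile, none, without Rn45s), other filters (none, at least 1 CPM in 3 libraries), limma 3.58.1 (limma-trend, prior count 2), DESeq2 1.42.0, a replicate block, a term for WT replicates 1 and 2 and leaving out each library.

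Values in every library are given for each called member and for H2-K1, H2-D1, B2m, Tap1, Tapbp, Psmb8, Nlrc5, Cd74, H2-Aa, H2-Ab1, H2-Eb1, Ciita, Ifi30, Lgmn, Cd40 and Cd274 whatever their change. Other members are given by range or count. Non-members of the pathway were to be named where called. Those named besides (Ctsl, Ctsd, Ctsh, Irf1, Ifngr2, Hspa5, Psmb7, Cd86 and the promoter-binding factors) were chosen after their values were seen. The members and all lists were chosen with earlier results of these data known. Of 55 related symbols, 54 were found. Positions came from GENCODE M21 on GRCm38 and promoters from RefSeq (GRCm38.p6), neither checked against the annotation behind the counts. Scripts were tested on simulated counts.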

Additional observations from a re-analysis of the deposited data

How the results depend on the processing

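Of the 16 alternatives, 8 called the same 3 members (Cd74, H2-Aa and Lgmn): 3 other scalings, leaving out Rn45s, both other filters, limma-trend and DESeq2. With a replicate block no member was called lower (0), and with a term for WT replicates 1 and 2 none either (0), while leaving out 1 library gave 0 to 2 lower members: H2-Aa without Txnip-/- replicate 2, Lgmn and Cd74 without WT replicate 3, and none without any of the other libraries. No alternative called a member higher. These fits hold fewer samples or fewer residual degrees of freedom, and the cause was not tested. The replicate numbers share only a number, since same-numbered libraries did not deviate together (correlations -0.03, 0.02 and -0.05). The block gave adjusted p-values of 0.0701 for Cd74, 0.0758 for H2-Aa and 0.115 for Lgmn, with log2 fold changes of -4.40, -4.70 and -0.41, 1 related gene called lower, and 40 and 68 genes called higher and lower among all genes.

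Over all genes, 66 were called higher and 113 lower. The higher count was 36 without scaling factors, 124 with no filter and 112 with DESeq2, and the lower count was 222 with no filter. Leaving out 1 library gave 29 to 137 higher and 60 to 230 lower, both highest without WT replicate 3. Related genes called lower were 4 without scaling factors, 4 with no filter and 1 to 4 with a library left out, and 1 (Hspa5) was called higher with a term for WT replicates 1 and 2.

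Among the members followed through every fit, signs turned only where the main log2 fold change lay between -0.30 and 0.16. H2-K1 turned to -0.035 without scaling factors, and H2-D1 to 0.14 and Cd274 to 0.070 with the term. Nlrc5 kept its sign with the term but moved to 1.05. Leaving out 1 library gave -0.13 to 0.031 for H2-D1, -0.047 to 0.0084 for B2m, -0.16 to 0.061 for Tap1 (0.0013 without Txnip-/- replicate 1), -0.19 to 0.037 for Tapbp and -0.58 to 0.52 for Nlrc5 (-0.14 without WT replicate 3). Leaving out scaling factors moved the median of all genes by -0.082 on the log2 scale. The 1 alternative chosen after seeing the data, leaving H2-DMb1 out of the class II counts per 1000 macrophage marker counts, moved the difference of the genotype means from -4.54 to -8.50. Class II chains had no more than 46 counts in any library, which limits what they can show.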
